A study of Homo sapiens with 27 samples.

Results

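The genes described are 7 cancer-testis antigen genes, SSX1, MAGEA1, MAGEA3, MAGEA6, MAGEA12, FAM133A and PRAME, among the 13523 genes measured in 501mel, a human melanoma cell line. They were taken by symbol, and all 7 passed the filter on low values that left 13052 genes to test. RNA was read by QuantSeq Forward, which counts polyadenylated transcripts from their 3′ ends, in 9 groups. Wild-type (WT) cells were untreated, kept for 12 h in HBSS (a salt solution with glucose but without amino acids) or given 250 nM Torin, an inhibitor of the mTOR kinase, for 12 h. TFE3 KO, TFEB KO and TFE3/TFEB double-knockout (DKO) cells were each kept for 12 h without Torin, as controls, or with 250 nM Torin1. Every knockout line was a single Cas9 clone, so the effect of the clone and that of the genotype cannot be told apart. The labels give 12 h for the knockout controls but no time for the untreated WT cells. Any difference in handling thus cannot be told apart from the genotype, or from the treatment in WT cells. One column labelled HBSS and one labelled Torin in WT cells were identical in all 13523 genes, and both were left out, which gave n = 2 for these groups, n = 3 for the others and 25 libraries in all. In that column the melanocytic marker DCT was 4570, against 4030 and 4047 in the HBSS and 693 and 682 in the WT Torin libraries used. TFEB was 23.9, against 30.4 and 28.0 in HBSS and 5.63 and 4.27 with Torin. MITF was 1500, against 1392 and 1454 in HBSS and 735 and 732 with Torin. The other melanocytic markers searched for, SOX10 and TYR among them, were nearer HBSS as well. MAGEA3, at 10.6, was nearer Torin (14.5 and 11.4) than HBSS (20.7 and 24.7). Settings that keep the column as WT Torin may thus place an HBSS library among the Torin ones.

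The libraries held 4147050 to 6526392 reads, and 1 read was worth 0.153 to 0.237 on the normalised expression scale, which is close to CPM. All 8 melanocytic markers were found, with a summed level of 5193 to 14482, and 0 of 7 male germ cell markers had a row in the table. TFE3 mRNA was 23.8 to 24.3 in untreated WT cells, 5.06 to 7.59 in TFE3 KO and 5.93 to 6.86 in DKO control cells. TFEB mRNA was 2.34 to 3.96 in untreated WT cells, 0.750 to 1.66 in TFEB KO, 0.156 to 1.05 in DKO and also only 0.177 to 1.56 in TFE3 KO control cells. With Torin, TFE3 mRNA was 20.4 and 17.5 in WT, 14.0, 9.13 and 9.15 in TFE3 KO and 6.15, 6.26 and 8.46 in DKO cells. TFEB mRNA was 5.63 and 4.27 in WT, 3.45, 0.628 and 0.611 in TFEB KO and 0.769, 0.190 and 0.984 in DKO cells with Torin, and TFEB KO replicate 1 thus lay below WT with Torin but within the range of untreated WT. Without that library, the only member result that no longer passed was that of FAM133A between DKO and TFEB KO under Torin. A 3′ end read does not cover a cut in an upstream exon, so these levels do not test the edits themselves.

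Cancer-testis genes are normally active in the germ cells of the testis. In most other tissues they are silent, largely through methylation of CG dinucleotides in their promoters, and in melanoma many become active again. TFE3 and TFEB are relatives of MITF that mTORC1 holds in the cytoplasm and that enter the nucleus when amino acids are short or mTOR is inhibited. The comparisons ask how the genes respond to starvation, to Torin and to the loss of TFE3 or TFEB.

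**Figure D1:**
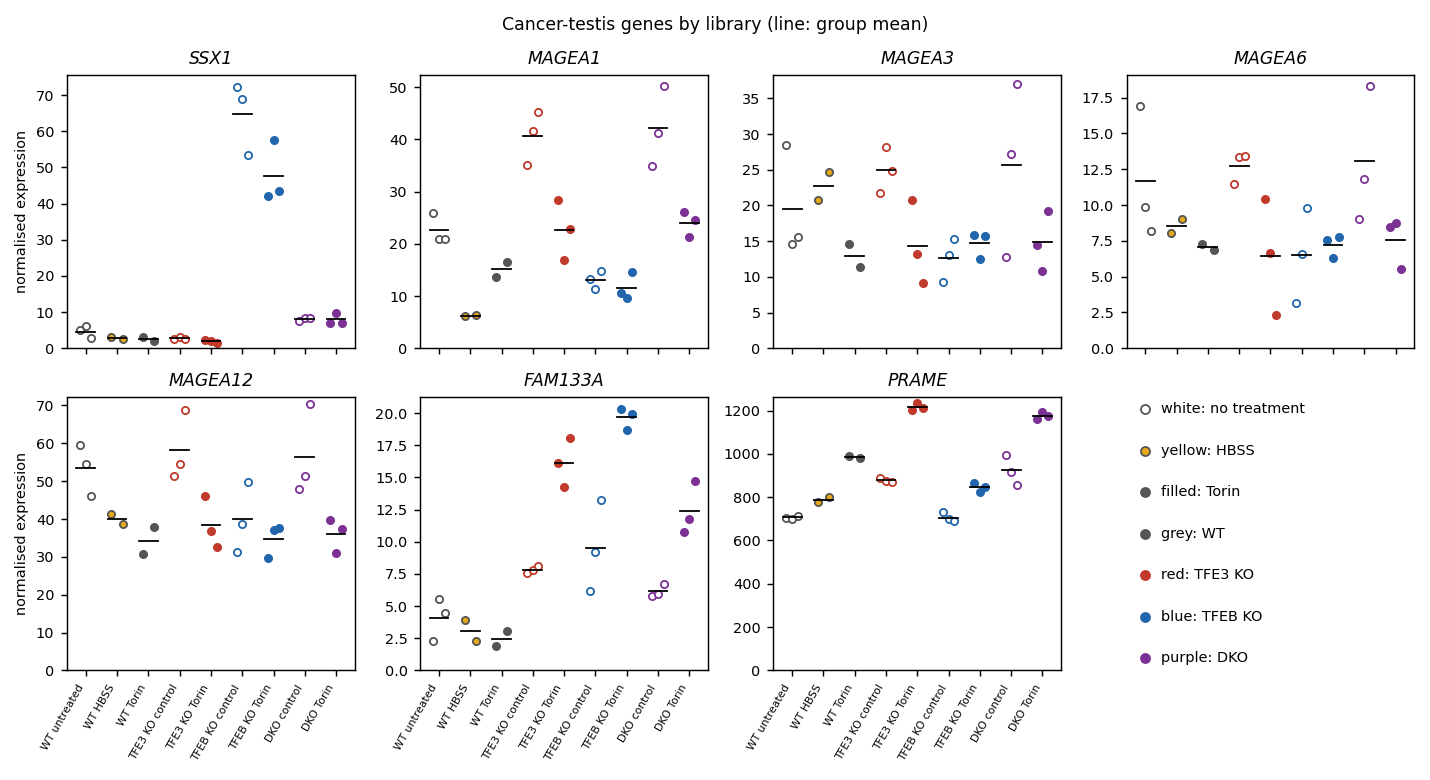
Normalised expression (vertical axes, linear, from 0) of the 7 cancer-testis genes in each library, by genotype and treatment, with a line at each group mean. SSX1 stands at 42.2 to 72.2 in the TFEB KO libraries and at no more than 9.86 in any other, MAGEA1 is highest in TFE3 KO and DKO control cells, and FAM133A is highest in the Torin-treated knockouts.

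All members but PRAME lie on chromosome X (hg38, GENCODE 44). MAGEA3 (chrX:152698767-152702347, + strand), MAGEA12 (chrX:152733757-152737669, + strand) and MAGEA6 (chrX:152766136-152769716, - strand) are close neighbours, and MAGEA1 (chrX:153179284-153183880, + strand) lies further along the same arm. SSX1 (chrX:48255392-48267444, + strand) starts 788 kb from the start of TFE3. FAM133A (chrX:93674013-93712274, + strand) and PRAME (chr22:22547701-22559361, - strand) lie apart from the others.

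Some paralogs share 3′ sequence, and reads from them could have been exchanged or lost when they were assigned to genes. Over the last 300 bases of the annotated transcripts, 0.442% to 76.5% of the 75-base stretches of MAGEA6 and 7.52% to 76.5% of those of MAGEA3 occurred in the other gene, depending on the transcript. None of the 75-base stretches of the other 5 members occurred in another gene. With 50-base stretches, 17.9% of those of SSX1 occurred in other genes, SSX2, SSX3, SSX4 and SSX5 among them, and up to 10.8% of those of MAGEA12. The separate levels of MAGEA3 and MAGEA6 are therefore uncertain, and MAGEA12 is overlapped on its own strand over 3843 bases by the non-coding gene CSAG4.

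A gene passed the test when its adjusted p in limma was under 0.05, and was called when its log2 fold change was also at least 1 in size. Fold changes are on the log2(value + 1) scale, which draws those of low genes towards 0, and are given with their standard errors. Contrasts of these same data had singled out SSX1 (TFEB KO against WT without Torin), MAGEA1 (TFE3 KO against TFEB KO without Torin) and FAM133A (TFE3 KO against WT under Torin). Those are given as descriptions with no test, and contrasts that share their libraries are named as such.

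SSX1, a chromatin-associated protein known from its fusion with SS18 in synovial sarcoma, was high in the TFEB KO clone and low in the other cells. Its level was 4.93, 6.14 and 2.73 in the untreated WT libraries and 72.2, 69.0 and 53.5 in the TFEB KO control libraries, with means of 4.599 ± 1.73 (SD, n = 3) and 64.9 ± 9.96 (SD, n = 3). The ratio of these means was 14.1, on 14 to 31 reads per library in WT and 317 to 368 in TFEB KO cells. In DKO control cells SSX1 was 7.63, 8.37 and 8.30, and in TFE3 KO control cells 2.65, 3.22 and 2.65. The TFEB KO libraries lay far above all others, the DKO libraries lay between them and WT, and those of TFE3 KO overlapped WT. Fewer cells with SSX1 mRNA and less of it per cell cannot be told apart in such bulk RNA.

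The Torin libraries had no part in the choice of SSX1 and gave the same order of genotypes. They come from the same clones, so they show that the difference held under Torin and are no independent test of the genotypes. SSX1 was 3.05 and 2.13 in WT, 42.2, 57.6 and 43.4 in TFEB KO, 7.08, 9.86 and 7.08 in DKO and 2.33, 2.004 and 1.46 in TFE3 KO cells under Torin. TFEB KO exceeded WT by 3.76 ± 0.24 (adjusted p = 1.6e-16), which was 18.4-fold by the means. DKO exceeded WT by 1.32 ± 0.24 (adjusted p = 9.1e-05) and was below TFEB KO, with a log2 fold change of -2.44 ± 0.21 (adjusted p = 9.2e-13). The TFEB KO clone thus held more SSX1 mRNA than the DKO clone. TFE3 KO differed from WT in SSX1 by -0.29 (95% interval -0.77 to 0.19, adjusted p = 0.5), which did not pass. TFEB mRNA was also low in the TFE3 KO clone, at 1.91, 1.34 and 2.29 under Torin.

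Without Torin, SSX1 was higher in DKO than in WT cells by 0.75 ± 0.21 (adjusted p = 0.012), a contrast that shares the WT libraries with the choosing one. It did not pass in a fit of only the libraries compared (0.75, adjusted p = 0.055) or without WT replicate 3, the lowest of the WT libraries (0.48, adjusted p = 0.18). Torin lowered SSX1 in WT cells by a log2 fold change of -0.60 ± 0.24 (adjusted p = 0.037), which did not pass with edgeR (-0.77, adjusted p = 0.087), with DESeq2 (-0.79, adjusted p = 0.095), in a fit of only the libraries compared (-0.60, adjusted p = 0.13) or without WT Torin replicate 3 (-0.42, adjusted p = 0.3), untreated replicate 1 (-0.54, adjusted p = 0.1) or untreated replicate 2 (-0.40, adjusted p = 0.21). The untreated WT libraries in this contrast and in that of HBSS are those of the choosing one. In the knockouts the Torin difference was -0.40 in TFE3 KO, -0.44 in TFEB KO and -0.03 in DKO cells, and none of these passed. In HBSS SSX1 was 3.22 and 2.51, with a difference of -0.49 (95% interval -0.97 to -0.01, adjusted p = 0.089). In the order of the 9 group means, the libraries of neighbouring groups separated only between TFEB KO and DKO and between DKO and WT.

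The sequence before the SSX1 start is shown because methylation acts on its CG dinucleotides, given in capitals. It held 3 of them, where the median of 35116 RefSeq windows of 250 bases was 11 and 22.9% of windows held fewer (GRCh38.p14, chrX:48255142-48255391, + strand).
SSX1: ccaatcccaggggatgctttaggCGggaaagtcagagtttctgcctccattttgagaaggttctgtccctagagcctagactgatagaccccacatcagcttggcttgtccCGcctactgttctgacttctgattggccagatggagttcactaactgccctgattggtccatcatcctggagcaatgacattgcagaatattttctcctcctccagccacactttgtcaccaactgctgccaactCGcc

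No gene near SSX1 was called with it. Of 9 tested neighbours within 500 kb, 0 passed higher and 1 lower in TFEB KO against WT under Torin (18% of all genes passed), with a median log2 fold change of 0.01, and 0 were called in any contrast that called SSX1. Of all genes, 1.67% to 4.97% were called in these contrasts, so 0 of 9 is near the background. None of 13 other SSX genes listed had a row in the table. Over 25 libraries, the patterns most like SSX1 were those of KCNA3 (r = 0.93, within groups -0.20) and EPB41L4A (r = 0.92, within groups -0.02), so the likeness lay in the group means.

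**Figure D2:**
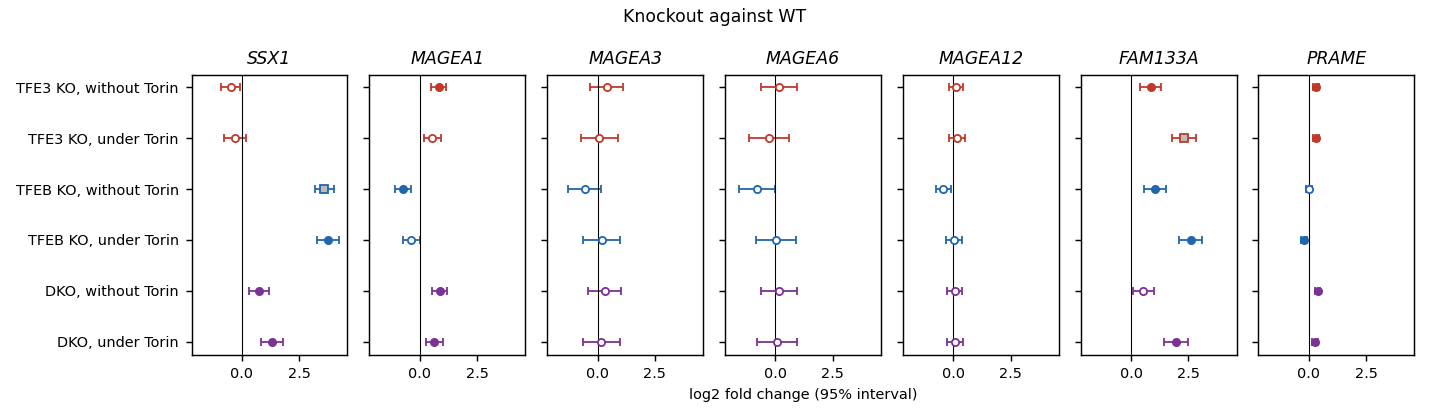
Log2 fold changes (horizontal axis, with 95% intervals) of each knockout against WT, without and under Torin, for the 7 genes. Filled circles passed at an adjusted p under 0.05, open circles did not, and grey squares are contrasts that singled a gene out and carry no test. Some circles share libraries with the contrast that chose the gene and are no independent tests. These are SSX1 in TFE3 KO and DKO without Torin, MAGEA1 in TFE3 KO and TFEB KO without Torin, and FAM133A in TFEB KO and DKO under Torin. SSX1 lies at 3.596 and 3.76 in TFEB KO cells, MAGEA1 lies on opposite sides of 0 in TFE3 KO and TFEB KO cells, and no filled circle stands for MAGEA3, MAGEA6 or MAGEA12.

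MAGEA1 belongs to the MAGE-A family, whose proteins bind RING-type ubiquitin ligases. It was higher in both clones without TFE3 and lower in the TFEB KO clone than in WT cells. Its level was 26.0, 21.0 and 20.9 in untreated WT cells, 35.1, 41.6 and 45.2 in TFE3 KO, 13.2, 11.4 and 14.8 in TFEB KO and 34.9, 41.3 and 50.2 in DKO control cells. The libraries of these genotypes did not overlap, except those of TFE3 KO and DKO. In the contrast that singled the gene out, the TFE3 KO mean of 40.6 ± 5.10 (SD, n = 3) was 3.10 times the TFEB KO mean of 13.1 ± 1.66 (SD, n = 3). In contrasts sharing those libraries, the log2 fold change against WT was 0.82 in TFE3 KO and -0.74 in TFEB KO cells. DKO, which did not enter the choice, exceeded WT by 0.86 ± 0.17 (adjusted p = 0.00017).

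Under Torin, MAGEA1 was 28.4, 16.9 and 22.9 in TFE3 KO, 10.5, 9.58 and 14.7 in TFEB KO, 26.2, 21.2 and 24.6 in DKO and 13.6 and 16.6 in WT cells. TFE3 KO exceeded TFEB KO by 0.91 ± 0.17 (adjusted p = 2.3e-05) and DKO exceeded TFEB KO by 1.01 ± 0.17 (adjusted p = 5.1e-06). The TFEB KO libraries thus lay below those of both other knockouts in the presence of Torin as well, in the same clones that entered the choice or stood beside it, so this is no independent test of the genotypes. Against WT under Torin, DKO was higher by 0.64 ± 0.19 (adjusted p = 0.017), but not without WT Torin replicate 2 (0.50, adjusted p = 0.21), DKO Torin replicate 1 (0.57, adjusted p = 0.071) or DKO Torin replicate 3 (0.62, adjusted p = 0.052). The differences of 0.54 (95% interval 0.16 to 0.91, adjusted p = 0.057) in TFE3 KO and -0.37 (95% interval -0.75 to 0.01, adjusted p = 0.17) in TFEB KO cells did not pass.

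MAGEA1 was lowest in HBSS. Its level there was 6.21 and 6.28, on 27 to 30 reads, and both libraries were below all others. The log2 fold change against untreated WT cells was -1.70 ± 0.19 (adjusted p = 1.3e-10), with 0.276 of the untreated mean left, and in 14 alternative analyses it passed each time, with values from -1.85 to -1.60. Torin lowered MAGEA1 in WT cells by a log2 fold change of -0.55 ± 0.19 (adjusted p = 0.014), which did not pass without untreated replicate 1 (-0.45, adjusted p = 0.071) or WT Torin replicate 2 (-0.42, adjusted p = 0.17). In DKO cells the Torin difference was -0.78 ± 0.17 (adjusted p = 0.00012). In TFE3 KO and TFEB KO cells, whose control libraries entered the choice of the gene, it was -0.83 and -0.18. No difference between a knockout's Torin response and that of WT passed for MAGEA1. In the order of the 9 group means, from DKO control to HBSS, neighbouring groups separated below the TFE3 KO controls, between untreated WT and WT with Torin, and above HBSS.

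Of the 10 genes tested within 500 kb of MAGEA1, other members left aside, 5 passed lower and 0 higher in HBSS. Of all 13052 genes, 3224 passed lower and 3075 higher, 48.3% in all. The number that passed is thus near the background over both directions, though all 5 were lower. Called among them were CETN2, a centrosome protein (log2 fold change -1.32), and NSDHL, an enzyme of sterol synthesis (-1.10), where 13.1% of all genes were called. The median of the 10 was -0.17. In DKO against TFEB KO under Torin, 2 of the 10 were called, PNMA3 (1.31) and the phosphatase gene DUSP9 (1.25), where 3.81% of all genes were called. With 10 genes, nothing is read from these counts. Among the patterns most like MAGEA1 was that of MRPL16 (r = 0.91, within groups 0.67).

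MAGEA3, MAGEA6 and MAGEA12, also of the MAGE-A family, did not differ between any knockout and WT at an adjusted p under 0.05. The sequences before their starts are printed, with CG dinucleotides in capitals, to show how alike the first 2 are and how far MAGEA12 aligns with them. The 250 bases of MAGEA3 (chrX:152698544-152698793, + strand) and MAGEA6 (chrX:152769690-152769939, - strand) were identical and held 15 CG. Those of MAGEA12 (chrX:152733507-152733756, + strand), the first of 2 windows listed for it, held 5, and 157 of 177 aligned bases matched MAGEA3. The MAGEA3 window runs on past the point that matches the end of the MAGEA12 window, and many of its CG lie in that last stretch. The counts of 15 and 5 thus do not compare the same stretch. All are RefSeq windows on GRCh38.p14.
MAGEA3: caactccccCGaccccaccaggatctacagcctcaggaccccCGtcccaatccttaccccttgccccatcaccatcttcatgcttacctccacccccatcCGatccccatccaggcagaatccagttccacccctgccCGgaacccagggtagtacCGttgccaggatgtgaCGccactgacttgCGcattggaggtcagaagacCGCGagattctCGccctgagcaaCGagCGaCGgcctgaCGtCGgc
MAGEA6: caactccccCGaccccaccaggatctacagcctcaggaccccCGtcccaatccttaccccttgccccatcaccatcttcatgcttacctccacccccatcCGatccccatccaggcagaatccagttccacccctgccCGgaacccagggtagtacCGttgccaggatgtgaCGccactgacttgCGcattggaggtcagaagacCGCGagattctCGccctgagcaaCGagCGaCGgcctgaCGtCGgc
MAGEA12: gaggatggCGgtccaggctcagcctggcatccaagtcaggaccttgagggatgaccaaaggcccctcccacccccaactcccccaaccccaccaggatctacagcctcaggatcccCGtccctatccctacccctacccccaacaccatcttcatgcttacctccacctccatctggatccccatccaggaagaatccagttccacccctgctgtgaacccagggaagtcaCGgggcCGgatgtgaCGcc

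Motifs were searched on both strands in these windows and in those of FAM133A and PRAME. The E-box CACGTG, which TFE3, TFEB and MITF bind, was in none of the 6 members with a window and in 6.34% of all windows. The variant CATGTG, at 9.42% of all windows, was in none of them either. The same held for the longer site TCACGTGA, which contains the E-box and was in 0.854% of all windows. CCGGAA, the core of ETS factor sites, was in MAGEA3, MAGEA6 and PRAME and in 14.5% of all windows. TGACG, part of the CREB and ATF site, was in MAGEA3, MAGEA6, MAGEA12 and FAM133A and in 21.2% of all windows.

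MAGEA3 was 28.4, 14.6 and 15.6 in untreated WT cells, 21.7, 28.2 and 24.8 in TFE3 KO, 9.34, 13.1 and 15.3 in TFEB KO and 12.8, 27.2 and 36.9 in DKO control cells. MAGEA6 was 16.9, 9.90 and 8.20 in untreated WT cells, 11.5, 13.3 and 13.4 in TFE3 KO, 3.19, 6.56 and 9.78 in TFEB KO and 9.04, 11.9 and 18.3 in DKO control cells. In both genes the libraries of each knockout overlapped WT, and the DKO libraries were spread most widely in MAGEA3. The intervals were wide, and TFEB KO against WT without Torin gave -0.56 (95% interval -1.29 to 0.16, adjusted p = 0.31) for MAGEA3 and -0.80 (95% interval -1.58 to -0.01, adjusted p = 0.17) for MAGEA6.

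In both genes all TFE3 KO control libraries lay above those of TFEB KO. MAGEA3 differed by 0.95 ± 0.34 (adjusted p = 0.045) and MAGEA6 by 0.97 (95% interval 0.19 to 1.76, adjusted p = 0.057). The MAGEA3 difference did not pass with edgeR (0.96, adjusted p = 0.054) or when TFE3 KO replicate 1, 2 or 3 or TFEB KO replicate 1 or 2 was left out (0.77 to 1.04, adjusted p = 0.064 to 0.17). Under Torin the libraries overlapped, with -0.10 for MAGEA3 and -0.31 for MAGEA6.

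Torin lowered MAGEA6 in TFE3 KO cells, to 10.4, 6.68 and 2.29, a log2 fold change of -1.05 ± 0.38 (adjusted p = 0.024). Without TFE3 KO Torin replicate 3, which held 11 reads, the value was -0.55, adjusted p = 0.13, and it did not pass either without control replicate 2 (-1.02, adjusted p = 0.06) or 3 (-1.02, adjusted p = 0.062). MAGEA3 was 20.8, 13.1 and 9.15 there, a difference of -0.82 (95% interval -1.54 to -0.09, adjusted p = 0.056). Of the 7 neighbours tested in that contrast, PNMA3 (1.35) and PNMA6A (1.03) were called, in the opposite direction to MAGEA6 (11.7% of all genes were called). Both were also called with Torin in WT cells, where MAGEA6 was not. Neither MAGEA3 nor MAGEA6 passed for Torin in WT, TFEB KO or DKO cells. In HBSS MAGEA3 was 20.7 and 24.7 and MAGEA6 8.05 and 8.9996, with differences of 0.26 (95% interval -0.55 to 1.07, adjusted p = 0.61) and -0.35 (95% interval -1.23 to 0.52, adjusted p = 0.52). In the order of the 9 group means of either gene, all neighbouring groups overlapped.

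MAGEA12 was lower under Torin in WT, TFE3 KO and DKO cells. It was 59.5, 54.6 and 46.1 in untreated WT cells and 30.7 and 37.9 with Torin, a log2 fold change of -0.62 ± 0.18 (adjusted p = 0.0043) that did not pass without WT Torin replicate 2 (-0.48, adjusted p = 0.099). In TFE3 KO cells it went from 51.4, 54.6 and 68.8 to 46.0, 37.0 and 32.7 with Torin (-0.59 ± 0.16, adjusted p = 0.0022). In DKO cells it went from 47.8, 51.2 and 70.3 to 39.7, 30.9 and 37.4 (-0.62 ± 0.16, adjusted p = 0.0013). The libraries with and without Torin did not overlap in these 3 genotypes. In TFEB KO cells MAGEA12 was 31.2, 38.6 and 49.9 without and 29.8, 37.1 and 37.7 with Torin, a difference of -0.17 (95% interval -0.49 to 0.15, adjusted p = 0.41). The Torin responses of TFEB KO and WT differed by 0.45 (95% interval -0.03 to 0.93, adjusted p = 0.4), which did not pass.

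Between knockouts without Torin, MAGEA12 was higher in TFE3 KO than in TFEB KO cells by 0.55 ± 0.16 (adjusted p = 0.0076), but not without TFE3 KO replicate 3 (0.43, adjusted p = 0.063) or TFEB KO replicate 1 (0.39, adjusted p = 0.076). It was higher in DKO than in TFEB KO cells by 0.50 ± 0.16 (adjusted p = 0.018), but not without DKO replicate 3 (0.33, adjusted p = 0.14) or TFEB KO replicate 1 (0.34, adjusted p = 0.15) or 2 (0.48, adjusted p = 0.057). In HBSS it was 41.4 and 38.7, below all untreated WT libraries, with a difference of -0.40 (95% interval -0.76 to -0.04, adjusted p = 0.061). In the order of its group means, only untreated WT and HBSS, as neighbours, did not overlap.

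The spread between replicates was shared by these paralogs, but not by them alone. Within groups, MAGEA1 correlated with MAGEA12 at r = 0.65, and PRAME with MAGEA12 at r = -0.71 and with MAGEA3 at r = -0.62. After group means were removed, MAGEA3 correlated over 25 libraries with MAGEA6 at r = 0.72 and with MAGEA12 at r = 0.63, and MAGEA6 with MAGEA12 at r = 0.69. The pattern most like MAGEA3 was that of TXN (r = 0.91, within groups 0.88), the redox protein thioredoxin, followed by TMA7 (r = 0.88, within groups 0.87). MAGEA6 was also most like TXN (r = 0.85, within groups 0.81), followed by ARPC1A (r = 0.82, within groups 0.78). MAGEA12 was most like CHCHD1 (r = 0.91, within groups 0.86) and PRDX3 (r = 0.91, within groups 0.76). The points share library, depth and scaling, whose part in these group differences was not tested.

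**Figure D3:**
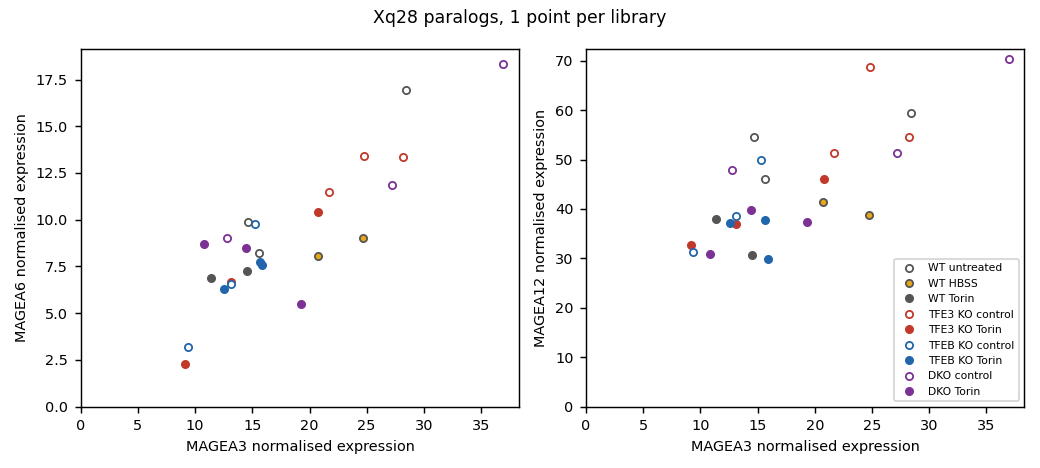
MAGEA6 (left) and MAGEA12 (right) on the vertical axes against MAGEA3 on the horizontal axes, in normalised expression, with 1 point per library, coloured by genotype and filled by treatment. The points rise together, with r = 0.82 for MAGEA6 and r = 0.74 for MAGEA12 over 25 libraries on the log2 scale.

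FAM133A was higher in both single knockouts than in WT cells, and higher again in each knockout under Torin. Its level was 2.30, 5.54 and 4.49 in untreated WT cells, 7.59, 7.82 and 8.11 in TFE3 KO, 6.15, 9.18 and 13.3 in TFEB KO and 5.76, 5.93 and 6.73 in DKO control cells. Every knockout library was above every WT library. The difference from WT was 1.04 ± 0.23 (adjusted p = 0.0011) in TFEB KO cells and 0.85 ± 0.23 (adjusted p = 0.011) in TFE3 KO cells, and the latter did not pass without WT replicate 1, the lowest library (0.56, adjusted p = 0.16). In DKO cells it was 0.54 (95% interval 0.08 to 0.998, adjusted p = 0.12), which did not pass.

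Torin raised FAM133A in TFEB KO cells to 20.35, 18.7 and 19.95 (1.03 ± 0.23, adjusted p = 0.00031) and in DKO cells to 10.8, 11.8 and 14.8 (0.90 ± 0.23, adjusted p = 0.00091). In TFE3 KO cells, whose Torin libraries entered the choice of the gene, it went to 16.1, 14.2 and 18.1, a log2 fold change of 0.95. In WT cells FAM133A was 1.88 and 3.08 with Torin, on 8 to 13 reads, and these libraries entered the choice too. They gave a difference of -0.52 (95% interval -1.03 to -0.01, adjusted p = 0.095). In HBSS FAM133A was 3.91 and 2.30, a difference of -0.29 (95% interval -0.80 to 0.23, adjusted p = 0.37). The ratios of the means to WT under Torin were 6.52 in TFE3 KO, 7.93 in TFEB KO and 5.02 in DKO cells, all against the same 2 WT libraries. The gene thus stood higher with Torin in each knockout, while its level in WT cells was not seen to rise.

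The Torin response exceeded that of WT by 1.55 ± 0.34 (adjusted p = 0.013) in TFEB KO and by 1.42 ± 0.34 (adjusted p = 0.037) in DKO cells, and both contain the 2 WT Torin libraries that entered the choice of the gene. With the identical column kept as a WT Torin library they were 1.47, adjusted p = 0.14, and 1.34, adjusted p = 0.1, and without WT Torin replicate 2 they were 1.30, adjusted p = 0.12, and 1.17, adjusted p = 0.26. The TFEB KO value also did not pass without TFEB KO control replicate 1 (1.30, adjusted p = 0.061), nor the DKO value with edgeR (1.69, adjusted p = 0.074), in a fit of only the libraries compared (1.42, adjusted p = 0.11) or without WT untreated replicate 2 or 3, DKO control replicate 1 or 2 or DKO Torin replicate 2 or 3 (1.17 to 1.45, adjusted p = 0.063 to 0.26 over all libraries whose removal ended it). DESeq2 gave no adjusted p for FAM133A in these contrasts.

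Under Torin FAM133A was lower in DKO than in TFEB KO cells by a log2 fold change of -0.63 ± 0.23 (adjusted p = 0.03), which did not pass with a pseudocount of 0.1 (-0.67, adjusted p = 0.056) or without TFEB KO replicate 1, 2 or 3 or DKO replicate 1 or 2 (-0.67 to -0.54, adjusted p = 0.051 to 0.12). In the order of group means, neighbours separated between TFEB KO and TFE3 KO with Torin, between TFE3 KO and DKO controls and between DKO controls and untreated WT. FAM133A had no tested neighbour within 500 kb. Its paralog FAM133B fell with Torin in TFE3 KO (-0.49, adjusted p = 0.00095) and DKO cells (-0.59, adjusted p = 9.4e-05). In TFEB KO cells its difference was 0.01 (95% interval -0.25 to 0.26, adjusted p = 0.97) and in WT cells -0.17 (95% interval -0.45 to 0.11, adjusted p = 0.33), and neither passed. The patterns most like FAM133A were those of MYL10 (r = 0.81, within groups 0.56) and DLG5-AS1 (r = 0.77, within groups 0.36), both at 0 in at least 1 library.

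PRAME, the substrate receptor of a CUL2 ubiquitin ligase and a repressor of retinoic acid receptor signalling, was the best-covered member, with 3204 to 7548 reads per library. Its level was 704, 701 and 715 in untreated WT cells, 891, 874 and 868 in TFE3 KO, 729.5, 698 and 691 in TFEB KO and 996, 916 and 858 in DKO control cells. It was higher than in WT by 0.31 ± 0.06 (adjusted p = 0.00012) in TFE3 KO and by 0.38 ± 0.06 (adjusted p = 2.4e-06) in DKO cells. TFEB KO differed from WT by -0.0014 (95% interval -0.12 to 0.12, adjusted p = 0.99). The 2 clones without TFE3 thus held more PRAME mRNA, by 1.24-fold and 1.31-fold, and their libraries did not overlap those of WT or TFEB KO.

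Torin raised PRAME in every genotype. It was 992 and 980.1 with Torin in WT cells (0.48 ± 0.06, adjusted p = 3.9e-08) and 1200.3, 1236 and 1209 in TFE3 KO cells (0.47 ± 0.06, adjusted p = 2.6e-09). It was 865, 823 and 849 in TFEB KO cells (0.26 ± 0.06, adjusted p = 0.00032) and 1161, 1194 and 1174 in DKO cells (0.35 ± 0.06, adjusted p = 1.6e-06). Libraries with and without Torin did not overlap in any genotype. The responses of TFEB KO and WT differed by -0.22 (95% interval -0.40 to -0.04, adjusted p = 0.22), which did not pass. In HBSS PRAME was 778 and 799, and its difference of 0.16 ± 0.06 (adjusted p = 0.041) did not pass in a fit of only the libraries compared (0.16, adjusted p = 0.11) or when any of the 5 libraries was left out, WT untreated replicate 1, 2 or 3 or HBSS replicate 1 or 2 (0.14 to 0.18, adjusted p = 0.057 to 0.2).

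Under Torin, TFE3 KO exceeded WT in PRAME by 0.30 ± 0.06 (adjusted p = 0.0012) and exceeded TFEB KO by 0.52 ± 0.06 (adjusted p = 5.4e-10). DKO exceeded WT by 0.25 ± 0.06 (adjusted p = 0.0057), which did not pass without WT Torin replicate 3 (0.25, adjusted p = 0.071), and it exceeded TFEB KO by 0.48 ± 0.06 (adjusted p = 7.9e-09). TFEB KO was below WT by a log2 fold change of -0.22 ± 0.06 (adjusted p = 0.013), which did not pass with the identical column kept as a WT Torin library (-0.16, adjusted p = 0.14) or without WT Torin replicate 2 (-0.21, adjusted p = 0.097) or 3 (-0.23, adjusted p = 0.077). In the order of group means, TFE3 KO with Torin was highest, and neighbouring groups overlapped only from WT with Torin to DKO controls, from these to TFE3 KO controls and between untreated WT and TFEB KO controls. The patterns most like PRAME were those of OBSL1 (r = 0.96, within groups 0.17) and MEX3A (r = 0.96, within groups 0.58).

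**Figure D4:**
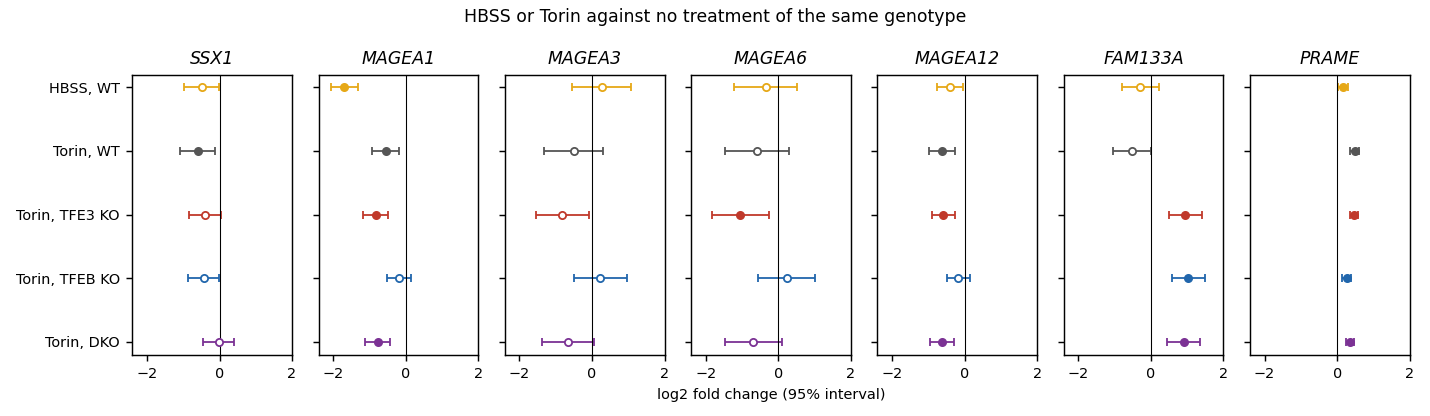
Log2 fold changes (horizontal axis, with 95% intervals) of HBSS or Torin against no treatment in the same genotype for the 7 genes. Filled circles passed at an adjusted p under 0.05 and open circles did not. Some circles share libraries with the contrast that chose the gene and are no independent tests. These are SSX1 in WT and TFEB KO, MAGEA1 in TFE3 KO and TFEB KO, and FAM133A with Torin in WT and TFE3 KO cells. MAGEA1 lies at -1.70 in HBSS, PRAME lies to the right of 0 in every row, and FAM133A lies near 1 with Torin in the 3 knockouts and below 0 in WT cells.

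The counts of members are read against those of all genes tested. In HBSS 2 of 7 members passed (48.3% of all genes) and 1 was called (13.1%). With Torin 4 passed in WT (43.9%, 0 called against 9.66%), 5 in TFE3 KO (51.4%, 1 called against 11.7%), 2 in TFEB KO (38.3%, 1 called against 5.02%) and 4 in DKO cells (51.6%, 0 called against 11.1%). With 7 members, these shares lay on both sides of those of all genes. Against WT without Torin, 3 passed in TFE3 KO (9.41%, 0 called against 1.52%), 3 in TFEB KO (14.6%, 2 called against 1.67%) and 3 in DKO cells (13.1%, 0 called against 1.82%). Against WT under Torin, 2 passed in TFE3 KO (9.64%, 1 called against 1.94%), 3 in TFEB KO (18%, 2 called against 2.44%) and 4 in DKO cells (12.1%, 2 called against 2.37%). Members chosen by these contrasts had to be among those that passed, so nothing is read from the knockout counts.

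Against TFEB KO, 5 members passed in TFE3 KO without Torin (29.9%, 2 called against 4.05%) and 3 with it (35.2%, 1 called against 4.97%). In DKO cells 4 passed without Torin (25.5%, 2 called against 3.1%) and 4 with it (31.2%, 2 called against 3.81%). The contrast of TFE3 KO and TFEB KO without Torin is the one that singled out MAGEA1. The TFEB KO control libraries, in both contrasts without Torin, also entered the choice of SSX1. The Torin libraries come from the same clones, so nothing is read from the counts against TFEB KO. For the difference of the Torin response from WT, FAM133A alone passed and was called in TFE3 KO (1.06% and 0.276% of all genes), TFEB KO (1.16% and 0.207%) and DKO cells (0.506% and 0.161%). All of these contain the WT Torin libraries that entered the choice of FAM133A, and that of TFE3 KO contains both choosing groups, so nothing is read from these counts.

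Of 188 other cancer-testis genes listed, 43 had a row and 39 were tested. In HBSS 13 of them passed lower and 5 higher, with a median log2 fold change of -0.26, where the median of all genes was -0.03. Of all 13052 genes, 3075 passed higher and 3224 lower in HBSS, 48.3% in all, so the number of listed genes that passed is near the background. Of the 7 other MAGE genes, 5 passed lower and 0 higher, with a median of -0.89. MAGEA10 fell from 23.7, 18.8 and 19.1 to 8.28 and 7.95 (-1.23 ± 0.15, adjusted p = 2.4e-09), and MAGEC1 from 15.6, 18.6 and 20.30 to 12.4 and 9.84 (-0.66 ± 0.17, adjusted p = 0.0011), the latter not without HBSS replicate 2 (-0.51, adjusted p = 0.053). MAGEA11 (-1.03, adjusted p = 8.4e-06), MAGEB1 (-0.89, adjusted p = 9.3e-05) and MAGEB2 (-1.03, adjusted p = 1.3e-11), named after their values were seen, fell as well. MAGEA1 was thus 1 of 6 MAGE genes lower in HBSS, whereas MAGEA3, MAGEA6 and MAGEA12 did not pass.

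**Figure D5:**
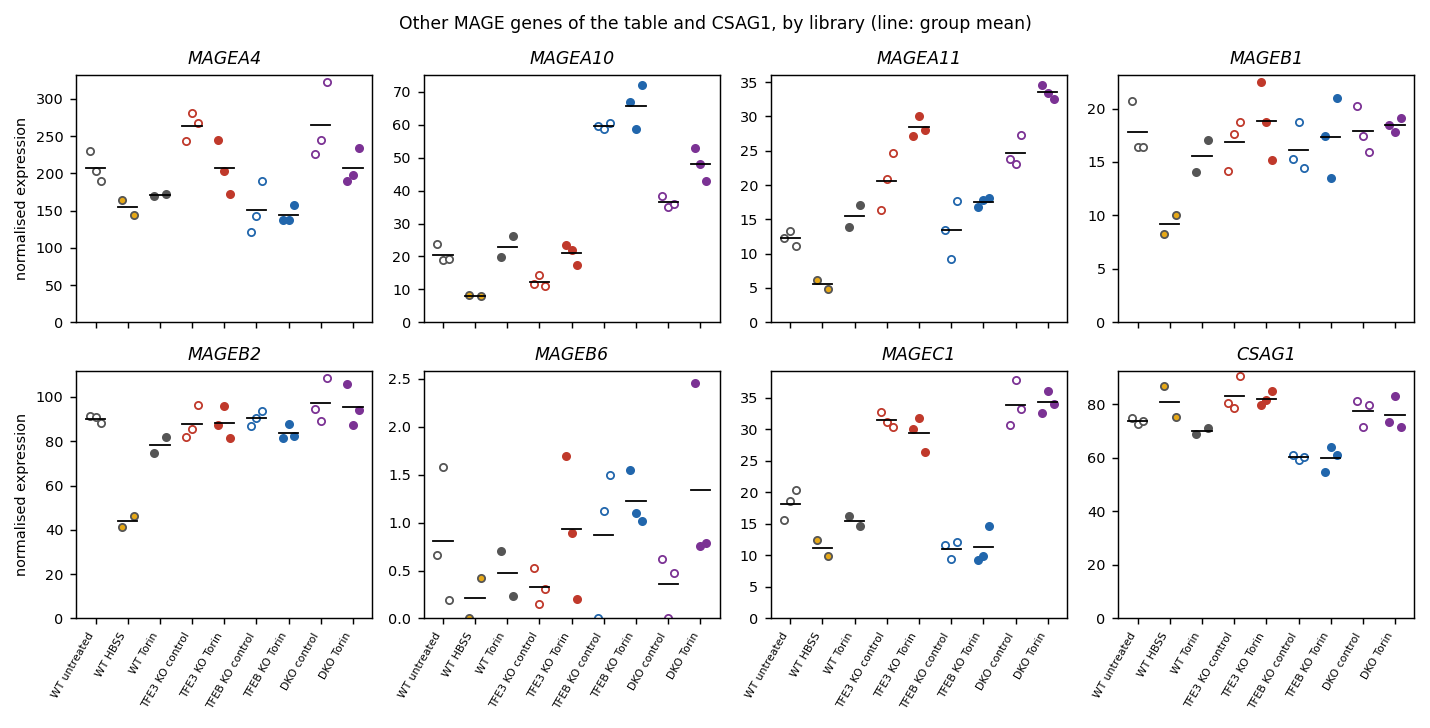
Normalised expression (vertical axes, linear, from 0) by library of the 7 other MAGE genes in the table and of CSAG1, coloured as in the plot of the members, with a line at each group mean. MAGEA10 is highest in TFEB KO cells, MAGEC1 is highest in TFE3 KO and DKO cells, and MAGEB2 is lowest in HBSS, at 41.2 and 46.5.

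Other MAGE genes also separated the knockouts, in both directions. MAGEA10 was 59.7, 58.9 and 60.5 in TFEB KO control cells and exceeded WT by 1.502 ± 0.14 (adjusted p = 1.2e-11), and by 1.49 ± 0.15 (adjusted p = 5.8e-10) under Torin. It was 11.7, 14.3 and 10.9 in TFE3 KO (-0.70 ± 0.14, adjusted p = 0.00024 against WT) and 38.5, 35.0 and 35.8 in DKO control cells (0.80 ± 0.14, adjusted p = 1.8e-05). Its genotypes stood in the order of SSX1. MAGEC1 was 32.7, 31.1 and 30.4 in TFE3 KO (0.76 ± 0.15, adjusted p = 0.00033 against WT), 11.6, 9.37 and 12.1 in TFEB KO (-0.67 ± 0.15, adjusted p = 0.0015) and 30.7, 37.8 and 33.2 in DKO control cells (0.87 ± 0.15, adjusted p = 3.4e-05), the order of MAGEA1. The MAGE genes thus moved in opposite directions between genotypes.

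Several scarcer genes of the list separated the clones. Of the 39 tested, 3 passed higher and 5 lower in TFE3 KO against WT without Torin (9.41% of all genes in either direction). The counts were 5 and 6 in TFEB KO (14.6%) and 6 and 1 in DKO cells (13.1%). TEX14, a protein of the bridges between germ cells, was 1.82, 2.06 and 2.16 in TFEB KO and 0.329, 0.396 and 0.195 in untreated WT cells (1.21 ± 0.28, adjusted p = 0.0018). These WT values lay under what 3 reads were worth in the same libraries (0.493, 0.594 and 0.585). With Torin TEX14 was 8.45, 6.60 and 9.16 in TFEB KO and 4.22 and 5.21 in WT cells, and no more than 0.787 in TFE3 KO and DKO cells. HORMAD1, a protein of meiotic chromosomes, was lower than in WT in TFE3 KO cells, with log2 fold changes of -1.14 (adjusted p = 0.0084) without and -1.505 (adjusted p = 0.0017) with Torin, but not without WT untreated replicate 1 (-0.94, adjusted p = 0.078) and WT Torin replicate 2 (-1.28, adjusted p = 0.069), respectively. VCX2 was 3.42, 3.75 and 3.48 in TFEB KO control cells and no more than 1.05 in the other genotypes without Torin (1.33 ± 0.28, adjusted p = 0.00079 against WT, and 2.04, adjusted p = 0.072 with a pseudocount of 0.1). VCX3A was lower in TFE3 KO than in TFEB KO control cells (-1.60 ± 0.29, adjusted p = 2.4e-05), and as VCX genes are near-identical copies their separate values are uncertain. PASD1 was lower than in WT in both single knockouts, with log2 fold changes of -1.34 (adjusted p = 0.001) in TFE3 KO and -1.67 (adjusted p = 5.4e-05) in TFEB KO cells.

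Treatments also moved single genes of the list. With Torin in WT cells, 5 of the 39 tested passed higher and 4 lower, where 43.9% of all genes passed. SPEF2, a protein of the sperm tail, rose in HBSS from 8.55, 6.14 and 9.76 to 43.0 and 42.7 (2.28 ± 0.22, adjusted p = 5.5e-12), against the direction of the MAGE genes. PASD1 (-1.76, adjusted p = 1.2e-05), VCX3A (-1.16, adjusted p = 0.0024) and ELOVL4, an enzyme of very long fatty acids (-1.29, adjusted p = 0.00021), fell in HBSS, VCX3A not without HBSS replicate 2 (-0.69, adjusted p = 0.17). ATAD2, a chromatin protein of dividing cells, fell with Torin from 136, 163 and 156 to 50.2 and 65.9 in WT cells (-1.38 ± 0.11, adjusted p = 2.2e-14) and also in DKO (-1.91), TFEB KO (-0.97) and TFE3 KO cells (-1.995). SPAG1 fell with Torin in WT (-1.18), DKO (-1.60), TFEB KO (-0.88) and TFE3 KO cells (-1.44). Its WT value did not pass without untreated replicate 1 (-0.84, adjusted p = 0.054) or Torin replicate 2 (-0.87, adjusted p = 0.11), nor its TFEB KO value with a pseudocount of 0.1 (-0.98, adjusted p = 0.072) or without control replicate 1 or 3 or Torin replicate 2 (-0.82 to -0.65, adjusted p = 0.057 to 0.13). TKTL1, a transketolase relative, rose with Torin in TFEB KO cells (1.26 ± 0.28, adjusted p = 0.00026).

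Genes of germline-gene silencing, of which 39 of 40 listed were tested, include those that keep cancer-testis promoters methylated. In HBSS 9 passed higher and 17 lower, with a median log2 fold change of -0.09, and with Torin in WT cells 5 and 15, with a median of -0.20 (medians of all genes -0.03 and 0.00). Of all 13052 genes, 2671 passed higher and 3053 lower with Torin in WT cells, beside the HBSS counts given above. UHRF1, which guides maintenance methylation of DNA, fell from 18.2, 19.4 and 19.9 in untreated WT cells to 3.68 and 1.05 in HBSS (-2.70 ± 0.26, adjusted p = 2.8e-12) and 2.58 and 4.50 with Torin (-2.18 ± 0.26, adjusted p = 1.7e-09). The chromatin remodeller HELLS fell in HBSS (-1.02, adjusted p = 4.2e-11) and with Torin (-1.22, adjusted p = 3.8e-13). L3MBTL2, of a repressor complex of germline genes, fell in HBSS (-1.47, adjusted p = 2.6e-14), and the polycomb subunit EED fell with Torin (-1.03, adjusted p = 2.5e-07). KDM5B, an H3K4 demethylase, rose in HBSS (1.32, adjusted p = 9.3e-10) and with Torin (1.40, adjusted p = 5.2e-10), and so did the H3K9 methyltransferase SETDB1, by 0.90 (adjusted p = 6.1e-07) in HBSS and 1.15 (adjusted p = 4.5e-09) with Torin.

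Without Torin, the shares of silencing genes that passed between genotypes can be read against those of all genes. Against WT, 3 passed higher and 0 lower of 39 in TFE3 KO (all genes 9.41% in either direction), 1 and 7 in TFEB KO (14.6%), and 4 and 2 in DKO cells (13.1%). DNMT1, the maintenance methyltransferase, named after its values were seen, was 407, 546 and 499 in WT, 371, 379.9 and 359 in TFEB KO (-0.38 ± 0.09, adjusted p = 0.0041) and 627, 648 and 548 in TFE3 KO control cells (0.33 ± 0.09, adjusted p = 0.014), the latter not without WT replicate 1 or TFE3 KO replicate 1 or 2 (0.21 to 0.31, adjusted p = 0.066 to 0.15). The part of these genes in the levels of SSX1, MAGEA1 or FAM133A was not tested.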

How the data were processed

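According to the labels and the study's methods, 3′ end libraries were trimmed with cutadapt 2.10, checked with FastQC 0.11.9, mapped to hg38 with STAR 2.7.8a and normalised with edgeR. The values the authors deposited are this normalised expression signal per gene. The counter, its strand setting, the gene filter and the read length are not given in the sources used here. All values (100%) were whole multiples of what 1 read was worth in their library (tolerance 0.01 reads), so reads could be recovered. Sources do not say that libraries were separate cultures, and p-values measure only the spread between these libraries, which may be technical. Read counts cover counting error only.

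Of 27 libraries, 25 entered one limma 3.58.1 fit of 9 groups (R 4.3.3, trend and robust) on log2(value + 1). To be tested, a gene had to reach 1 in 3 or more libraries, which 471 genes did not. Tests were 2-sided, with Benjamini-Hochberg adjustment over 13052 genes in each of 18 contrasts, and the fit was tested on simulated data. Other settings were edgeR 4.0.16 and DESeq2 1.42.0 on the recovered reads, median-of-ratios scaling, a pseudocount of 0.1, a higher minimum (5) or none, the replicate number as a block, the compared libraries alone, the identical column kept, and each library left out. Members, lists and tests were chosen with earlier results of these data known. Named were the members, the 12 other cancer-testis genes and the 8 silencing or partner genes with the largest called changes, called neighbours within 500 kb of a called member, and the 2 genes with the highest Pearson r to each member, of which 1 is not reported here. Any further gene was named after its values were seen. Positions are from GENCODE 44 and sequences from RefSeq (GRCh38.p14), which had a window for 6 of 7 members. A motif match describes letters and is not a site.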

Additional observations from a re-analysis of the deposited data

Results flagged for a closer look

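For 4 genes the Torin response of a knockout differed from that of WT in the interaction term of the limma fit, and each rests on the 2 WT Torin libraries used. FAM133A responded more than in WT cells, by 1.55 (SE 0.34, adjusted p = 0.013) in TFEB KO and 1.42 (SE 0.34, adjusted p = 0.037) in DKO, as log2 differences. The WT Torin libraries in both also entered the choice of FAM133A, so these values describe the gene and are no independent test. They did not pass with the identical column kept as WT Torin (1.47, adjusted p = 0.14, and 1.34, adjusted p = 0.1) or without WT Torin replicate 2 (1.30, adjusted p = 0.12, and 1.17, adjusted p = 0.26), and the DKO value not with edgeR (1.69, adjusted p = 0.074), among the other losses given in the results. TEX14 responded less, with differences of -2.16 (SE 0.42, adjusted p = 0.0024) in TFE3 KO and -1.83 (SE 0.42, adjusted p = 0.023) in DKO cells. Neither TEX14 difference passed with a pseudocount of 0.1 (-4.03, adjusted p = 0.099, and -2.80, adjusted p = 0.41), with edgeR (-3.87, adjusted p = 0.3, and -2.78, adjusted p = 0.53) or with the identical column kept as a WT Torin library (-1.60, adjusted p = 0.16, and -1.27, adjusted p = 0.3). The DKO value also did not pass with a minimum value of 5 (-1.83, adjusted p = 0.059) or without WT untreated replicate 3, WT Torin replicate 2 or 3, DKO control replicate 3 or DKO Torin replicate 1 (-1.96 to -1.56, adjusted p = 0.058 to 0.15). ATAD2 fell further in TFE3 KO than in WT cells, with a difference of -0.61 (SE 0.15, adjusted p = 0.025), and of 20 alternatives it did not pass in 5, with the identical column kept as WT Torin (-0.96, adjusted p = 0.094) or without WT untreated replicate 1, WT Torin replicate 3, TFE3 KO control replicate 1 or TFE3 KO Torin replicate 3 (-0.56 to -0.42, adjusted p = 0.071 to 0.35). VCX3A responded more in DKO than in WT cells, by 1.86 (SE 0.43, adjusted p = 0.03), which did not pass in 11 of 19 alternatives, with adjusted p from 0.052 to 0.35 and the smallest value without WT Torin replicate 2 (1.27, adjusted p = 0.35).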

How the results depend on the processing

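Of 54 results of members that passed, 37 passed in every alternative run, 17 did not in at least 1, and 0 changed direction. The number of members called moved under these settings. With a pseudocount of 0.1 it was 2 for Torin in TFE3 KO (1 reported) and 1 for TFE3 KO against WT without Torin (0 reported). With edgeR and with DESeq2 it was 1 for Torin in DKO (0 reported), and with edgeR 0 for the Torin response of DKO minus WT (1 reported). With DESeq2 it was also 3 for DKO against TFEB KO without Torin (2 reported). With only the libraries compared it was 0 for the Torin response of DKO minus WT. The identical column was near HBSS in DCT, TFEB and MITF. With that column kept as WT Torin the number was 1 for Torin in WT (0 reported), 2 for TFE3 KO against WT under Torin (1 reported) and 0 for each of the 3 differences in Torin response (1 reported). DESeq2 gave FAM133A no adjusted p in those 3, with unadjusted p of 0.0003, 0.00027 and 0.00041. Leaving out 1 library at a time, the number was 0 to 1 for TFE3 KO against WT without Torin, Torin in TFEB KO, Torin in DKO and the 3 differences in Torin response, 0 to 3 for Torin in TFE3 KO, 1 to 2 for TFEB KO against WT without Torin and for TFE3 KO and DKO against TFEB KO under Torin, and 2 to 4 for TFE3 KO and DKO against TFEB KO without Torin. The cause was not tested. Same-numbered libraries did not deviate together (r from -0.19 to 0.14), and with the replicate number as a block PRAME in HBSS (0.15, adjusted p = 0.056) and MAGEA3 in TFE3 KO against TFEB KO without Torin (0.95, adjusted p = 0.063) did not pass, and no other member call was lost. MITF in TFE3 KO against WT under Torin, which is not among the members, went from 0.22 (adjusted p = 0.027) to -0.12 (adjusted p = 0.63) with the identical column kept as WT Torin. Another scaling shifted the median of all genes by at most 0.042 (log2). Of 14 nearest patterns by Pearson r, 4 were also in the first 2 by Spearman rho. Among the members, counts limit SSX1 in WT and TFE3 KO cells (7 to 31 reads) and FAM133A in WT cells (8 to 28 reads). Scarcer listed genes such as TEX14, below the value of 3 reads in untreated WT cells, are limited further.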

Other observations

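Of 28 partners of cancer-testis proteins listed, 23 were tested. SS18L1, a paralog of the SSX1 fusion partner SS18, rose in HBSS from 52.1, 56.8 and 42.2 to 178 and 169 (1.77 ± 0.11, adjusted p = 6.3e-18). RAB3IP, which binds SSX proteins, fell with Torin from 9.20, 6.93 and 8.78 to 2.58 and 4.27 in WT cells (-1.09 ± 0.29, adjusted p = 0.0017, but -0.81, adjusted p = 0.074 without WT Torin replicate 2), and also in DKO (-1.45), TFEB KO (-0.91) and TFE3 KO cells (-1.53). Without Torin it was lower in TFE3 KO than in TFEB KO cells (-1.10 ± 0.26, adjusted p = 0.0008).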
